A study of Mus musculus with 4 samples.

Results

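The chemokines and their receptors were taken as every gene on the array whose single symbol follows the family's naming (*Ccl*, *Cxcl*, *Cx3cl*, *Xcl*, *Ccr*, *Cxcr*, *Cx3cr*, *Xcr* or *Ackr* and a number). There were 55 of these members among 22180 genes, 34 chemokines and 21 receptors, each read by the probe with the highest mean. A gene was called above the floor when its mean over the 4 arrays passed 5.06 on the log2 scale, the 95th percentile of 1443 probes for olfactory, vomeronasal and taste receptors, which fat should lack. By this, 30 members lay above the floor, 21 chemokines and 9 receptors, or 54.5% of the members, beside 58.4% of all genes (12963 genes).

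Chemokines are small secreted proteins that steer leukocytes along concentration gradients, and their receptors are G protein-coupled receptors on the cells that respond. Inflammatory chemokines such as CCL2 draw monocytes into tissue, homeostatic ones such as CXCL12 and CXCL13 place cells within it, and atypical receptors bind chemokines without the usual G protein signal and clear them. In obese fat the family is known above all for the CCL2 and CCR2 route, by which monocytes enter and become macrophages.

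The tissue was whole epididymal fat of male C57BL/6J mice at 16 weeks of age, read on 4 expression arrays with 1 array per group. The groups were *Mir342* (-/-) on high fat-high sucrose (HFHS) chow, *Mir342* (+/+) on HFHS chow, *Mir342* (-/-) on standard (STD) chow and *Mir342* (+/+) on STD chow, with the diets given from 5 weeks of age. The (-/-) mice carry the *Mir342* tm1Wtsi allele in every cell, in which a puromycin selection cassette replaces the microRNA, and the (+/+) mice were littermates. The study speaks of 3 animals per group while 1 array stands for each group, and whether an array held a pool or 1 animal was not stated. A single array has no error of its own, so a difference between 2 arrays is given without a test and is called at 1.5-fold. The only test was limma's on an additive model of genotype and diet over the 4 arrays, with Benjamini-Hochberg adjustment over the 12963 genes. In whole fat, fewer cells of a type and less RNA per cell cannot be told apart.

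The deleted locus gives a pair of mature microRNAs, shown here because their absence is what separates the genotypes. RefSeq places the hairpin on the plus strand at chr12:108658620-108658718 (GRCm38.p6). The seed, bases 2 to 8, is in capitals.
miR-342-3p: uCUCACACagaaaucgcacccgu
miR-342-5p: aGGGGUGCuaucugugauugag
The probe for *Mir342* read 4.46 in HFHS (-/-) fat and 5.52 in HFHS (+/+) fat, and 4.62 in STD (-/-) fat and 5.43 in STD (+/+) fat. It was lower in (-/-) on both diets, and both (-/-) values lay under the floor. *Evl*, the host gene of the microRNA, read 7.46 in HFHS (-/-) fat and 7.65 in HFHS (+/+) fat, and 6.95 in STD (-/-) fat and 7.55 in STD (+/+) fat.

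The arrays carried the markers of fat, with 8 of 8 adipocyte, 11 of 11 macrophage, 10 of 10 blood endothelial and 9 of 9 fibroblast genes above the floor. Few lymphocyte or neutrophil markers were, namely 3 of 9 T cell, 2 of 8 B cell and 2 of 8 neutrophil genes. The STD (+/+) array stood apart: the summed intensity of 8 duct epithelium markers, of which 7 lay above the floor, was 337 and 340 in HFHS (-/-) and (+/+) fat, against 346 and 1735 in STD (-/-) and (+/+) fat. *Mmp7*, an epithelial metalloprotease on that list, read 5.14 and 5.14 in HFHS (-/-) and (+/+) fat, against 5.44 and 8.71 in STD (-/-) and (+/+) fat. On STD, 5 of the 7 were at least 1.5-fold lower in (-/-) fat, beside 3.95% of all genes. *Krt7* was instead lowest in STD (+/+) fat, at 5.48, with 6.08, 5.79 and 5.77 in HFHS (-/-), HFHS (+/+) and STD (-/-) fat. *Cldn3* lay between 5.71 and 5.96 on the 4 arrays. The genotype difference on HFHS and the diet difference in (-/-) do not use the STD (+/+) array. The other pair does, and the part of this epithelial RNA in those differences was not tested.

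**Figure D1:**
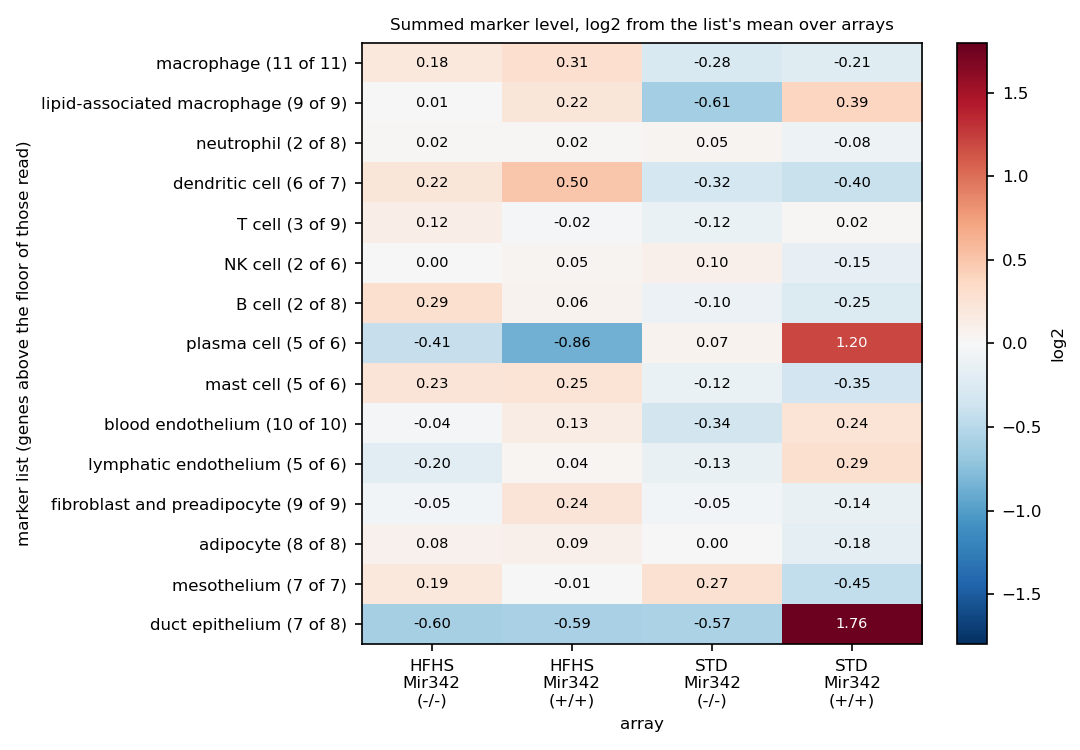
Summed intensity of each cell type marker list on the 4 arrays, as log2 distance from the list's mean over the arrays, with the number of its genes above the floor beside each name. Duct epithelium stood 1.76 above its mean in STD *Mir342* (+/+) fat, and macrophage markers were above their mean in both HFHS arrays.

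The gap between a member's highest and lowest array ran between 0.20 (*Cxcr3*) and 2.44 (*Cxcl13*) on the log2 scale over the 30 members above the floor. Only 3 members had 1 array at least 1.5-fold away from each of the other 3. *Cxcl13* was apart and higher in HFHS (-/-) fat, as were 0.1% of all genes above the floor, and *Ccl8* was apart and higher in HFHS (+/+) fat, as were 0.447% of all genes. *Cxcl9* was apart and lower in STD (+/+) fat, as were 0.764% of all genes. In STD (+/+) fat 14 of the 30 members had their lowest value, or 46.7% beside 28.2% of all genes. In HFHS (-/-) fat 13 had their highest, or 43.3% beside 17.4%.

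**Figure D2:**
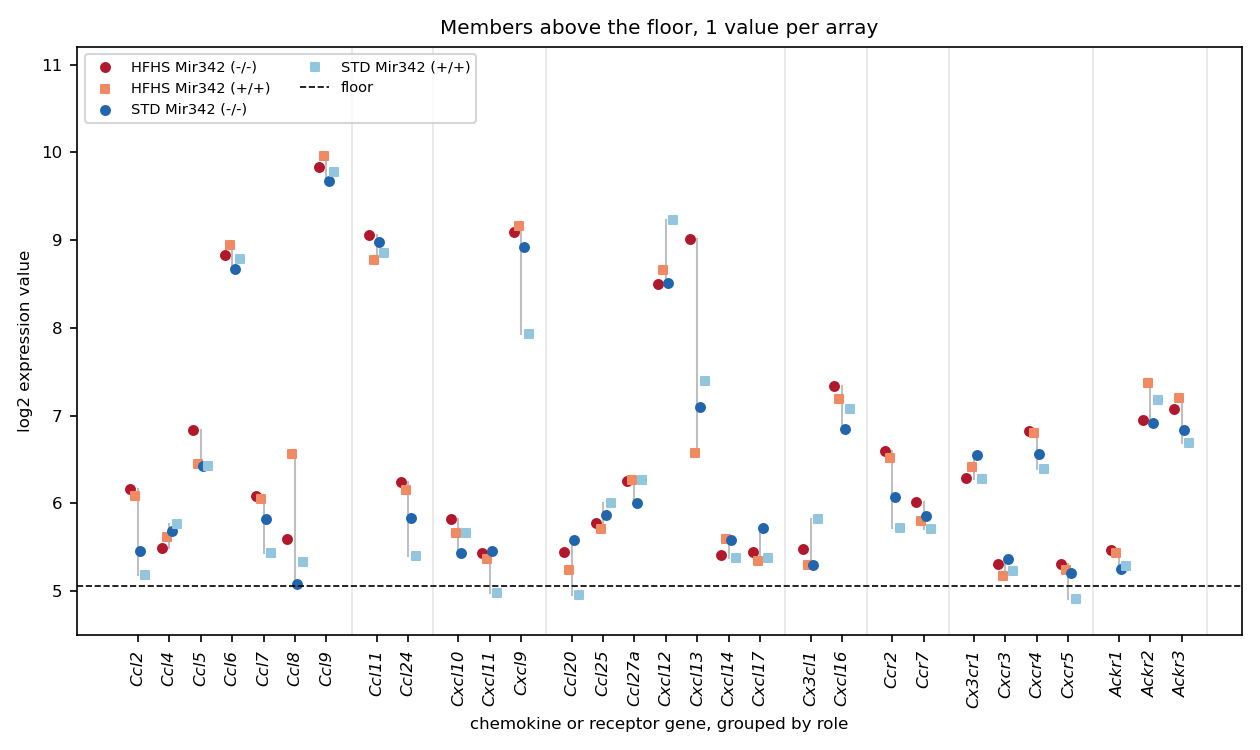
Log2 expression value of the 30 members above the floor, grouped by role and separated by grey lines, with 1 point per array and the floor dashed. Values of different genes come from different probes and are not comparable with each other. *Cxcl13* in HFHS *Mir342* (-/-) fat (9.02), *Ccl8* in HFHS *Mir342* (+/+) fat (6.56) and *Cxcl9* in STD *Mir342* (+/+) fat (7.93) stand away from their other 3 arrays.

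The promoter windows of these 3 genes are printed because each gene was set apart by a single array. RefSeq windows of 300 bases, from 250 before to 50 after the gene's start on its own strand, were found for 41 of the 55 members. Capitals mark TATAAA, the core of a TATA box, the only motif searched, on both strands.
Cxcl13 (chr5:95956689-95956988, plus strand, GRCm38.p6): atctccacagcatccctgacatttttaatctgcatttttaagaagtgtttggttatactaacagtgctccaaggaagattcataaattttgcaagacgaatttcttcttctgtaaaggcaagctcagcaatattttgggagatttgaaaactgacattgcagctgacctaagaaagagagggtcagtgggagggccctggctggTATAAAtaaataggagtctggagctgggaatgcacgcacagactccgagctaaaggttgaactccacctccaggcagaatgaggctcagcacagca
Ccl8 (chr11:82114935-82115234, plus strand, GRCm38.p6): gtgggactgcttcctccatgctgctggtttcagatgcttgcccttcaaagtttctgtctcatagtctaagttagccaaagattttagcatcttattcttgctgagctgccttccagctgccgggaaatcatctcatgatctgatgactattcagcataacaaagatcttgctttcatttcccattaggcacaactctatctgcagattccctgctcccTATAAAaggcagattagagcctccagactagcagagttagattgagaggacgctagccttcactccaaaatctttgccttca
Cxcl9 (chr5:92328030-92328329, minus strand, GRCm38.p6): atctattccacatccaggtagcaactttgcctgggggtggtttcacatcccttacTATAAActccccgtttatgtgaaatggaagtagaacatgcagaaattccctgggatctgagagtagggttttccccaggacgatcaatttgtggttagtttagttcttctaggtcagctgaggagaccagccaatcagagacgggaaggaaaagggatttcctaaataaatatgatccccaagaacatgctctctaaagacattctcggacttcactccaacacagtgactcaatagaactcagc
The TATAAA match began 46 bases before the start in *Cxcl13* and 32 before it in *Ccl8*, while in *Cxcl9* it lay 195 bases before it. TATAAA was in 13 of the 45 windows of the 41 members (28.9%), beside 13.6% of the 32851 windows of all genes. A match to these letters is a description and not a site.

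*Cxcl13*, which encodes the B cell attractant of lymphoid follicles, gave the widest gap of any member. It read 9.02 in HFHS (-/-) fat and 6.58 in HFHS (+/+) fat, and 7.09 in STD (-/-) fat and 7.39 in STD (+/+) fat. The first of these was the only array above 7.39, and the highest of the other 3 was 1.76-fold above the lowest. On HFHS the (-/-) array was thus 5.43-fold above the (+/+) array (log2 difference 2.44), while on STD the difference was -0.30. Between diets, *Cxcl13* was 3.80-fold higher on HFHS in (-/-) fat (1.92) and 1.76-fold lower on HFHS in (+/+) fat (-0.82). In the additive fit, which has no term for such a pattern, neither the genotype term (1.07, SE 0.55, adjusted p = 0.606) nor the diet term (0.55, SE 0.55, adjusted p = 0.645) passed.

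B cell and plasma cell markers were looked at beside *Cxcl13*. *Cxcr5*, the receptor of CXCL13, read 5.30 in HFHS (-/-) fat and 5.24 in HFHS (+/+) fat, and 5.21 in STD (-/-) fat and 4.91 in STD (+/+) fat, the last under the floor. The summed intensity of the 8 B cell markers was 268 and 228 in HFHS (-/-) and (+/+) fat, against 204 and 184 in STD (-/-) and (+/+) fat. Of that list *Ms4a1*, *Cd79b*, *Cr2*, *Fcer2a*, *Pax5* and *Blk* lay under the floor by their means. By single arrays *Cd79b* passed it in HFHS (-/-) and (+/+) fat (5.30 and 5.18). *Ms4a1* passed it in HFHS (-/-) fat alone (5.13), and *Blk* in STD (-/-) fat alone (5.13). *Fcmr*, above the floor, read 5.46 and 5.11 in HFHS (-/-) and (+/+) fat, against 5.21 and 5.03 in STD (-/-) and (+/+) fat. *Cd79a*, part of the B cell receptor, read 5.92 and 5.56 in HFHS (-/-) and (+/+) fat, against 4.87 and 5.03 in STD (-/-) and (+/+) fat. *Jchain*, the joining chain of secreted IgM and IgA, was highest in the same array as *Cxcl13*, with 6.04 in HFHS (-/-) fat and 4.65 in HFHS (+/+) fat, and 5.12 in STD (-/-) fat and 5.40 in STD (+/+) fat. The summed intensity of the 6 plasma cell markers was 329 and 241 in HFHS (-/-) and (+/+) fat, against 460 and 1007 in STD (-/-) and (+/+) fat. Most of it in STD fat was *Irf4*, a transcription factor also used outside plasma cells, which read 6.73 and 5.84 in HFHS (-/-) and (+/+) fat, against 8.01 and 9.65 in STD (-/-) and (+/+) fat. Without *Irf4*, a choice made after seeing its values, the other 5 summed to 223 and 184 in HFHS (-/-) and (+/+) fat, against 202 and 204 in STD (-/-) and (+/+) fat, and the highest sum lay in the same array as for *Cxcl13*. Of these 5 genes *Jchain* alone was highest in HFHS (-/-) fat. *Mzb1* was highest in STD (-/-) fat (5.68), *Prdm1* in HFHS (+/+) fat (5.64) and *Derl3* in STD (+/+) fat (5.94). *Tnfrsf17*, under the floor, was highest in HFHS (+/+) fat (4.34). The part of these cells in the *Cxcl13* values was not tested. *Ltb*, a subunit of lymphotoxin, which maintains *Cxcl13* in lymphoid tissue, read 5.69 and 5.59 in HFHS (-/-) and (+/+) fat, against 5.75 and 5.64 in STD (-/-) and (+/+) fat.

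The genotype comparison asked how the family read with and without *Mir342*. On HFHS chow 1 member was at least 1.5-fold higher in (-/-) fat, *Cxcl13*, beside 0.447% of all genes above the floor. A single member, *Ccl8*, was at least 1.5-fold lower, beside 0.849% of all genes. The median difference of the 30 members was 0.069, and that of all genes -0.027. With the floor raised by 1, which left 14 members, it turned to -0.041 beside -0.043 for all genes. The next largest differences on HFHS after *Cxcl13* and *Ccl8* were -0.42 for *Ackr2*, which scavenges inflammatory CC chemokines, and 0.39 for *Ccl5*.

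*Ccl8*, a CC chemokine encoded close to *Ccl2*, read 5.59 in HFHS (-/-) fat and 6.56 in HFHS (+/+) fat, and 5.08 in STD (-/-) fat and 5.34 in STD (+/+) fat. The (-/-) value was the lower one on each diet, with differences of -0.96 on HFHS (1.95-fold) and -0.25 on STD, and the STD (-/-) value lay just over the floor. Between diets the gap was 0.51 in (-/-) fat and 1.22 in (+/+) fat (2.33-fold). The genotype term was -0.61 (SE 0.19, adjusted p = 0.576). Several marker lists also summed highest in HFHS (+/+) fat. The 7 dendritic cell markers read, of which *Flt3* lay under the floor in 3 arrays, gave 3099 and 3773 in HFHS (-/-) and (+/+) fat, against 2128 and 2018 in STD (-/-) and (+/+) fat. The 11 macrophage markers gave 4751 and 5167 in HFHS (-/-) and (+/+) fat, against 3449 and 3612 in STD (-/-) and (+/+) fat, and the 9 fibroblast and preadipocyte markers 7459 and 9093 in HFHS (-/-) and (+/+) fat, against 7464 and 7018 in STD (-/-) and (+/+) fat. Most of the dendritic cell sum came from the MHC class II genes *H2-Aa*, *H2-Ab1* and *H2-Eb1*, which read 9.58, 10.94 and 9.38 in HFHS (+/+) fat. *Cd209a* of that list was lower on HFHS, with 7.27 and 7.31 in (-/-) and (+/+) fat, against 7.72 and 7.64 on STD. The part of these cells in the *Ccl8* values was not tested.

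On STD chow 2 members were at least 1.5-fold higher in (-/-) fat, *Ccl20* and *Cxcl9*, beside 1.79% of all genes. A single member, *Cxcl12*, was at least 1.5-fold lower, beside 3.95% of all genes. The median difference was 0.14 for the members and -0.057 for all genes, and with the floor raised by 1 it turned to -0.052 beside -0.10 for all genes. *Ccl20*, the ligand of CCR6, read 5.58 in STD (-/-) fat and 4.96 in STD (+/+) fat, and its difference of 0.63 shrank to 0.52 when the value under the floor was set to the floor. *Cxcl9*, an interferon-gamma induced ligand of CXCR3, read 8.93 in STD (-/-) fat and 7.93 in STD (+/+) fat, a difference of 0.998. Some markers of other cells were low in the STD (+/+) array too. The 7 mesothelium markers summed to 1376 and 1196 in HFHS (-/-) and (+/+) fat, against 1459 and 884 in STD (-/-) and (+/+) fat, with 5 of the 7 at least 1.5-fold higher in (-/-) on STD. Of 8 adipocyte markers, *Plin1*, a lipid droplet coat protein, and *Lep*, the leptin gene, were at least 1.5-fold higher in (-/-) on STD (0.96 and 1.54). The part of these cells in the *Cxcl9* value was not tested.

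*Cxcl12*, the stromal chemokine that retains CXCR4-bearing cells, read 8.50 in HFHS (-/-) fat and 8.66 in HFHS (+/+) fat, and 8.51 in STD (-/-) fat and 9.22 in STD (+/+) fat. The other 3 arrays were close together and the STD (+/+) array lay above them, which gave -0.16 on HFHS and -0.71 on STD between genotypes. *Cx3cl1*, the membrane-anchored chemokine fractalkine, also had its highest value in STD (+/+) fat, with 5.48 in HFHS (-/-) fat and 5.30 in HFHS (+/+) fat, and 5.30 in STD (-/-) fat and 5.82 in STD (+/+) fat. *Ccl28*, an epithelial chemokine under the floor by its mean, passed the floor in STD (+/+) fat alone, with 4.69 in HFHS (-/-) fat and 4.80 in HFHS (+/+) fat, and 4.85 in STD (-/-) fat and 5.58 in STD (+/+) fat. These 3 were high in the array with the duct epithelium markers, where the 10 blood endothelial markers also summed highest, at 6150, with 5073, 5707 and 4126 in HFHS (-/-), HFHS (+/+) and STD (-/-) fat. Their part in these values was not tested.

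**Figure D3:**
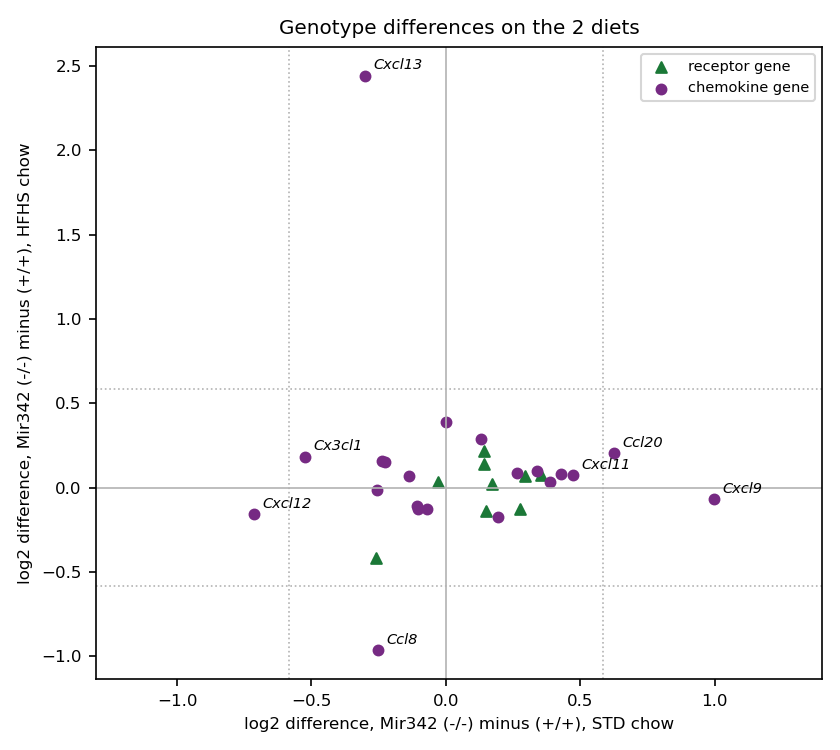
Log2 difference, *Mir342* (-/-) minus (+/+), of the 30 members above the floor on HFHS chow (vertical) against STD chow (horizontal), which share no array, with dotted lines at 1.5-fold. *Cxcl13* lies at 2.44 on HFHS and -0.30 on STD, and *Cxcl9* at -0.069 on HFHS and 0.998 on STD.

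The 2 genotype differences share no array, and they had the same sign for 20 of the 30 members, or 66.7% beside 57.8% of all genes. Both were above 0 for 13 members, or 43.3% beside 21.6% of all genes, and both were below 0 for 7, or 23.3% beside 36.3%. In 6 members both (-/-) arrays lay over both (+/+) arrays, namely *Ccl11*, *Ccl20*, *Ccr7*, *Cxcl11*, *Cxcl17* and *Cxcr3*, which was 20% of members beside 12.7% of all genes. In *Ackr2*, *Ccl27a* and *Cxcl12* both lay under, or 10% beside 19.6%. The larger share on the higher side was not kept with the floor raised by 1. There both (-/-) arrays lay over both (+/+) arrays in 1 of 14 members, beside 6.52% of all genes. They lay under in 3 of 14, a share close to that of all genes. The median differences there were -0.041 on HFHS, beside -0.043 for all genes, and -0.052 on STD, beside -0.10. Counts of signs are not given for that floor. *Ackr2* read 6.96 in HFHS (-/-) fat and 7.37 in HFHS (+/+) fat, and 6.92 in STD (-/-) fat and 7.17 in STD (+/+) fat. *Ccl11*, the eotaxin, read 9.06 in HFHS (-/-) fat and 8.77 in HFHS (+/+) fat, and 8.98 in STD (-/-) fat and 8.85 in STD (+/+) fat. By the additive fit no member passed for genotype, the smallest adjusted p among them being 0.576, and no gene of all those tested passed either. At an unadjusted p under 0.05 the fit held *Ccl20* as higher, beside 3% of all genes, and *Ackr2*, *Ccl8* and *Cxcl12* as lower, beside 5.34%.

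The diet comparison asked how the family read after HFHS against STD chow. The 5 members with the highest diet term in the additive fit were *Ccl8*, *Ccl2*, *Cxcl9*, *Ccr2* and *Ccl24*. Members of the same roles differed. Of 2 eosinophil attractants above the floor, *Ccl24* was among these 5, while *Ccl11* had a diet term of -0.00087. Of 7 monocyte and macrophage attractants *Ccl4* had -0.16. In each genotype 6 of the 7 had a diet difference above 0, beside 58.0% of all genes in (-/-) and 52.6% in (+/+) fat. In (-/-) fat 2 members were at least 1.5-fold higher on HFHS, *Ccl2* and *Cxcl13*, beside 3.12% of all genes, and 0 were lower, beside 1.31%. In (+/+) fat 6 were higher, namely *Ccl2*, *Ccl7*, *Ccl8*, *Ccl24*, *Ccr2* and *Cxcl9*, beside 6.53% of all genes, and *Cxcl13* was lower, beside 4.67%. The median difference of the members was 0.16 in either genotype, while that of all genes was 0.046 in (-/-) and 0.019 in (+/+) fat. The differences in the 2 genotypes share no array. They had the same sign for 22 of the 30 members, or 73.3% beside 65.6% of all genes. Both were above 0 for 17 members, or 56.7% beside 38.2% of all genes, and both below 0 for 5, or 16.7% beside 27.5%.

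**Figure D4:**
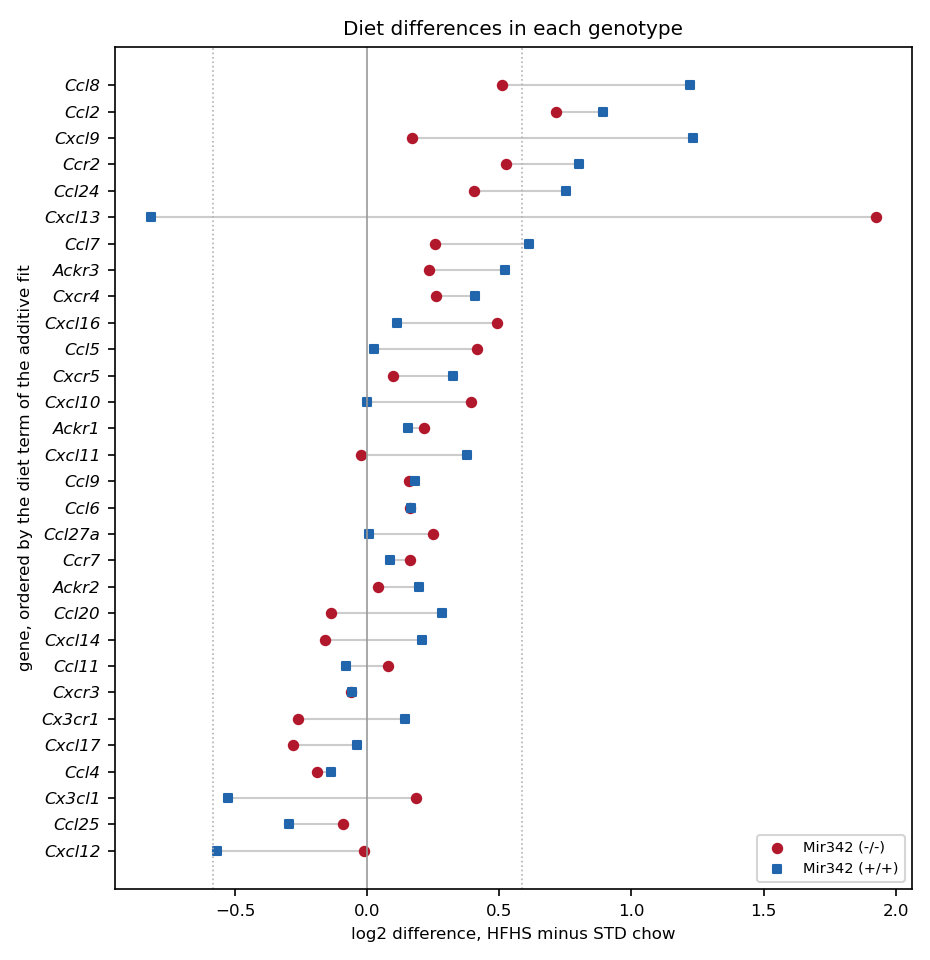
Log2 difference, HFHS minus STD chow, of the 30 members above the floor in *Mir342* (-/-) (circles) and *Mir342* (+/+) fat (squares), ordered by the diet term of the additive fit, with dotted lines at 1.5-fold. *Ccl2* is past 1.5-fold in both genotypes, and *Cxcl13* lies at 1.92 in (-/-) and -0.82 in (+/+) fat.

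In the additive fit *Ccl2* was the only member whose diet term passed, with an adjusted p of 0.042 (0.80, SE 0.13, a 1.74-fold rise). Of all genes 1.29% passed as higher and 0.54% as lower. *Ccl2*, the main monocyte attractant, read 6.17 and 6.08 in HFHS (-/-) and (+/+) fat, against 5.45 and 5.19 in STD (-/-) and (+/+) fat. The gap within a diet was 0.086 on HFHS and 0.26 on STD, and the gap between diets was 0.71 in (-/-) and 0.89 in (+/+) fat. The call was lost under quantile normalization (adjusted p = 0.0995) and with the floor left out (adjusted p = 0.16), and over all alternatives its adjusted p lay between 0.0353 and 0.16. In those 2 settings no gene passed for diet, so that the diet calls of listed and marker genes given further on were lost there as well. Without the STD (+/+) array no residual degree of freedom would be left, and the diet difference would be the 0.71 of the (-/-) arrays with no test.

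*Ccr2*, the receptor for CCL2 on monocytes, read 6.59 and 6.51 in HFHS (-/-) and (+/+) fat, against 6.07 and 5.71 in STD (-/-) and (+/+) fat. Its diet term was 0.66 (SE 0.13, adjusted p = 0.066), and it passed where the floor was raised by 1 (adjusted p = 0.0305, with up to 0.196 under the other alternatives). *Ccl8* had 0.87 (SE 0.19, adjusted p = 0.073) and *Ccl24*, an eosinophil attractant acting on CCR3, 0.58 (SE 0.14, adjusted p = 0.098). *Ccl24* read 6.24 and 6.16 in HFHS (-/-) and (+/+) fat, against 5.84 and 5.41 in STD (-/-) and (+/+) fat. *Ccl7*, another ligand of CCR2, read 6.08 and 6.05 in HFHS (-/-) and (+/+) fat, against 5.82 and 5.44 in STD (-/-) and (+/+) fat. For *Ccl2*, *Ccl7*, *Ccl8*, *Ccl24* and *Ccr2* alike, both HFHS arrays lay over both STD arrays, and the STD (+/+) value was the lowest except for *Ccl8*.

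Both HFHS arrays lay over both STD arrays in 14 of the 30 members, or 46.7% beside 29.4% of all genes. Besides those 5 they were *Ackr1*, *Ackr3*, *Ccl5*, *Ccl6*, *Ccl9*, *Cxcl9*, *Cxcl16*, *Cxcr4* and *Cxcr5*. Both lay under in *Ccl4* and *Ccl25*, or 6.67% beside 19.4%. At an unadjusted p under 0.05 the fit held 8 members as higher on HFHS, *Ackr3*, *Ccl2*, *Ccl7*, *Ccl8*, *Ccl24*, *Ccr2*, *Cxcl9* and *Cxcr4*, beside 13% of all genes, and 0 as lower, beside 6.7%. The diet term was above 0 for 22 members, or 73.3% beside 55.5% of all genes, with a median of 0.17 beside 0.028.

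Of the 11 macrophage markers whose sums are given above, 5 were at least 1.5-fold higher on HFHS in (-/-) fat, beside the 3.12% of all genes, and 6 in (+/+) fat, beside 6.53%, and 2, *Adgre1* and *C1qb*, passed the fit as higher. *Mertk*, a receptor for apoptotic cells, had differences of the other sign (-0.57 in (-/-) and -0.65 in (+/+) fat, the second at least 1.5-fold lower), and *Cd163*, a haemoglobin scavenger receptor, had 0.026 in (-/-) and -0.19 in (+/+) fat. Of the 9 lipid-associated macrophage markers 4 were at least 1.5-fold higher on HFHS in (-/-) fat and 0 lower, while in (+/+) fat 2 were higher and 3 lower, the lower ones being *Gpnmb*, *Mmp12* and *Atp6v0d2*. *Adgre1*, a macrophage surface receptor, read 7.81 and 7.86 in HFHS (-/-) and (+/+) fat, against 6.89 and 6.91 in STD (-/-) and (+/+) fat, and its diet term passed (0.94, SE 0.12, adjusted p = 0.032). The part of a change in macrophage content in the chemokine values was not tested.

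The other CC chemokines of monocytes were flatter. *Ccl6* and *Ccl9*, CC chemokines acting on CCR1, had diet terms of 0.16 and 0.17, and their 4 arrays lay within 0.27 and 0.29 of each other. *Ccl9* read 9.83 and 9.96 in HFHS (-/-) and (+/+) fat, against 9.67 and 9.78 in STD (-/-) and (+/+) fat. *Ccl5*, a T cell and monocyte attractant, was highest in HFHS (-/-) fat at 6.84 and read 6.45 in HFHS (+/+) fat, and 6.42 in both STD (-/-) and STD (+/+) fat. *Ccl4*, a macrophage inflammatory protein, read 5.50 and 5.62 in HFHS (-/-) and (+/+) fat, against 5.69 and 5.76 in STD (-/-) and (+/+) fat. *Ccl3* and *Ccl12* lay under the floor by their means, although *Ccl3* passed it in HFHS (-/-) fat (5.24).

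Members encoded side by side were compared as runs. In the RefSeq gene order of GRCm38.p6, *Ccl2*, *Ccl7*, *Ccl11*, *Ccl12*, *Ccl8* and *Ccl1* are a run of 6 neighbours, of which 4 lay above the floor. Their genotype differences on HFHS lay between -0.96 (*Ccl8*) and 0.29 (*Ccl11*), and their diet differences in (+/+) fat between -0.080 (*Ccl11*) and 1.22 (*Ccl8*). The run of *Ccl5*, *Ccl9*, *Ccl6*, *Ccl3* and *Ccl4* had a narrower range, with diet differences between -0.14 and 0.18 in (+/+) fat.

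The interferon-induced ligands of CXCR3 were all above the floor. *Cxcl9* read 9.09 and 9.16 in HFHS (-/-) and (+/+) fat, against 8.93 and 7.93 in STD (-/-) and (+/+) fat, so that its 1.23 between diets in (+/+) fat and its 0.998 between genotypes on STD both came from the low STD (+/+) array. *Cxcl10* read 5.83 and 5.67 in HFHS (-/-) and (+/+) fat, against 5.43 and 5.67 in STD (-/-) and (+/+) fat. *Cxcl11* read 5.44 and 5.36 in HFHS (-/-) and (+/+) fat, against 5.46 and 4.98 in STD (-/-) and (+/+) fat, the last under the floor. Like *Cxcl9*, *Cxcl11* was lowest in STD (+/+) fat, whereas *Cxcl10* was lowest in STD (-/-) fat. *Cxcr3*, their receptor on T and NK cells, stayed between 5.17 and 5.37 on the 4 arrays. *Ifng*, the interferon that induces them, lay under the floor.

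*Cxcr4*, the receptor of CXCL12, read 6.83 and 6.80 in HFHS (-/-) and (+/+) fat, against 6.57 and 6.39 in STD (-/-) and (+/+) fat. *Ackr3*, which takes up CXCL12, read 7.07 and 7.21 in HFHS (-/-) and (+/+) fat, against 6.84 and 6.68 in STD (-/-) and (+/+) fat. Both receptors were thus higher in the HFHS arrays, while the ligand's diet difference was -0.013 in (-/-) and -0.57 in (+/+) fat. The diet terms, 0.34 (SE 0.13, adjusted p = 0.218) for *Cxcr4*, 0.38 (SE 0.13, adjusted p = 0.199) for *Ackr3* and -0.29 (SE 0.16, adjusted p = 0.390) for *Cxcl12*, did not pass.

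*Cxcl16*, a membrane-anchored chemokine and scavenger of oxidized lipoprotein, read 7.34 and 7.18 in HFHS (-/-) and (+/+) fat, against 6.85 and 7.07 in STD (-/-) and (+/+) fat, while its receptor *Cxcr6* lay under the floor. *Cx3cr1*, the fractalkine receptor of monocytes and macrophages, stayed between 6.28 and 6.55. *Ccr7*, the lymph node homing receptor, stayed between 5.71 and 6.01, and *Ackr1*, which binds chemokines on venules and erythrocytes, between 5.25 and 5.47. *Cxcl14*, *Cxcl17* and *Ccl25*, the ligand of CCR9, were at most 0.38 apart among their 4 arrays. *Ccl27a*, the ligand of CCR10, was the only member with 2 probes. The brighter one read 6.26 in HFHS (-/-) fat and 6.27 in HFHS (+/+) fat, and 6.01 in STD (-/-) fat and 6.26 in STD (+/+) fat, and the dimmer 5.42 in HFHS (-/-) fat and 5.20 in HFHS (+/+) fat, and 5.06 in STD (-/-) fat and 5.22 in STD (+/+) fat. The probes differed in sign between genotypes on HFHS.

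The 25 members under the floor were 13 chemokines and 12 receptors. They included each of the 5 neutrophil attractants, *Cxcl1*, *Cxcl2*, *Cxcl3*, *Cxcl5* and *Cxcl15*, and both receptors of such chemokines, *Cxcr1* and *Cxcr2*. Of these *Cxcl1* passed the floor in HFHS (-/-) fat (5.09) and STD (-/-) fat (5.24), *Cxcl2* in HFHS (+/+) fat (5.11), and *Cxcr2* in STD (-/-) fat (5.07). *Ccl22*, a ligand of CCR4, was just under the floor with a mean of 5.03, and read 5.48 in HFHS (-/-) fat and 5.08 in HFHS (+/+) fat, and 5.05 in STD (-/-) fat and 4.49 in STD (+/+) fat. *Xcr1*, a receptor of cross-presenting dendritic cells, passed the floor in STD (+/+) fat alone (5.13). Among the members just above it were *Cxcr5*, with a mean of 5.16, and *Cxcr3*, with a mean of 5.27.

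Genes that work with the family were read from 5 lists. Among family genes under other symbols, 7 of the 9 read were above the floor, and *Cmklr1*, the chemerin receptor, and *Pf4*, the platelet chemokine, differed most between genotypes on STD (0.77 and -0.61). *Cmklr1* read 8.50 and 8.60 in HFHS (-/-) and (+/+) fat, against 8.57 and 7.79 in STD (-/-) and (+/+) fat, so it was low in the same array as *Cxcl9*. None of the 7 passed for diet or genotype.

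Of 23 genes read that carry the signal of chemokine receptors, 20 were above the floor, with a median diet term of 0.32. In (-/-) fat 0 of them were at least 1.5-fold higher on HFHS, beside 3.12% of all genes. In (+/+) fat 4 were, beside 6.53%, namely *Pik3cg*, *Rac2*, *Dock2* and *Ptk2b*, which act in leukocyte migration. *Dock2*, the exchange factor for Rac in lymphocytes and myeloid cells, read 7.12 and 7.24 in HFHS (-/-) and (+/+) fat, against 6.57 and 6.43 in STD (-/-) and (+/+) fat (0.68, SE 0.13, adjusted p = 0.063). The only gene of the list that passed was *Rgs2*, a brake on G protein signals, and it fell on HFHS (diet term -1.97, SE 0.28, adjusted p = 0.036). It read 7.09 and 6.44 in HFHS (-/-) and (+/+) fat, against 8.41 and 9.06 in STD (-/-) and (+/+) fat.

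Leukocyte adhesion genes had 16 of 19 above the floor and a median diet term of 0.34. *Selplg*, the ligand of P-selectin on leukocytes, rose on HFHS by 1.06 (SE 0.15, adjusted p = 0.036), and the hyaluronan receptor *Cd44* by 0.85 (SE 0.13, adjusted p = 0.039). *Selplg* read 7.28 and 7.69 in HFHS (-/-) and (+/+) fat, against 6.43 and 6.43 in STD (-/-) and (+/+) fat. On STD, the endothelial ligands *Icam2* and *Vcam1* were lower in (-/-) fat, with differences of -0.77 and -0.67 and no test. There 10 of 10 blood endothelial markers were also lower, so that 0 were above 0, beside 41.8% of all genes. Of the 10, 5 were at least 1.5-fold lower, beside 3.95% of all genes. The part of endothelial cells in these values was not tested.

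In the list of chemokine cleavage and presentation 13 of 14 genes were above the floor. The syndecan *Sdc4*, a heparan sulfate carrier on which chemokines can be held, fell on HFHS (diet term -0.86, SE 0.12, adjusted p = 0.036). Among 22 cytokines and signals that induce chemokines, 16 were above the floor, and *Tnf*, *Il1a*, *Il1b*, *Il6*, *Ifng* and *Lta* were not. The interleukin-1 receptor *Il1r1* fell on HFHS (diet term -1.02, SE 0.13, adjusted p = 0.030), with 7.56 and 7.75 in HFHS (-/-) and (+/+) fat, against 8.68 and 8.67 in STD (-/-) and (+/+) fat. For genotype, no gene of these 5 lists passed. All of the pairwise comparisons drew on the same 4 arrays, each array entering one genotype difference and one diet difference.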

How the data were processed

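RNA of epididymal fat was read on Affymetrix GeneChip Mouse Gene 2.0 ST arrays, 4 arrays in 4 groups. The values were used as the authors deposited them, as normalized log2 expression values of 41345 probes. Their method of normalization was not given in the sources read. Array medians of all probes lay between 5.06 and 5.14. By the array's platform annotation 23521 probes had 1 gene symbol, 1820 several and 16004 none. Only the first kind was used, with the probe of highest mean per gene (22180 genes), and older symbols were looked up for the lists. Probes on arrays carry no depth, so the number of arrays limits the precision.

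Differences between 2 arrays, (-/-) minus (+/+) or HFHS minus STD, have no test and were counted at 1.5-fold. An additive model of genotype and diet was fitted with limma 3.58.1 (R 4.3.3) on the 12963 genes above the floor, with 1 residual and 5.45 prior degrees of freedom, in which an effect that differs between levels counts as error. limma's test was checked on simulated data with the same spread for every gene and no effect that differed between levels. These arrays need not meet either condition, so the check does not show that the test holds here. Values of different probes were not compared.

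Members, gene lists and tests were chosen with earlier results of these data known. All members above the floor could be named, those under it where 1 array passed it, and up to 4 genes per list and comparison by size of difference. Cell type markers were given beside results. Alternatives were quantile normalization, median centring, no floor, a floor raised by 1, values under the floor set to it, the floor on the higher array, the mean of a gene's probes, a 2-fold limit and limma with trend and robust variances. Promoter and microRNA sequences are RefSeq's (GRCm38.p6), and coordinates are given for these alone.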

Additional observations from a re-analysis of the deposited data

Results flagged for a closer look

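In *Cxcl13* the genotype difference was 2.44 on HFHS and -0.30 on STD, and the diet difference was 1.92 in (-/-) and -0.82 in (+/+) fat. These pairs were of opposite sign, and the difference was not tested, since 1 array per group leaves no error for an interaction. In *Cxcl9* the genotype difference was -0.069 on HFHS and 0.998 on STD, again of opposite sign, and the difference was not tested.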

How the results depend on the processing

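No paired analysis was possible because each group had 1 array. Leaving out an array was not run, since 3 arrays leave no residual degree of freedom for the 3 coefficients. Of the summary counts and medians, 104 of 132 alternative values were close to the reported ones and 28 moved, among them the medians for genotype on HFHS and on STD, which turned sign with the floor raised by 1. With the floor raised by 1, which keeps 14 members, 0 were at least 1.5-fold lower for genotype on HFHS, a smaller share than that of all genes. At that floor 1 was higher for genotype on STD, 1 higher for diet in (-/-) and 2 higher for diet in (+/+) fat. Each of these was a larger share than that of all genes. The medians for genotype there were -0.041 on HFHS and -0.052 on STD. At 2-fold 0 of the 30 members were lower for genotype on HFHS, beside 0.147% of all genes. For genotype on STD 0 were higher and 0 lower, beside 0.224% and 0.818%. For diet 1 was higher in (-/-) fat, beside 0.579%. In (+/+) fat 2 were higher for diet and 0 lower, beside 1.85% and 1.19%. At 1.5-fold 1 of 30 members was higher for genotype on STD with median centring, beside 1.33% of all genes. With values under the floor set to it there was also 1 of 30, beside 1.43%. With no floor, or with the floor on the higher array, 2 members were lower for genotype on STD and 2 lower for diet in (+/+) fat. These were out of 55 and 34 members, and the shares were close to those of all genes. Quantile normalization also gave 2 lower for diet in (+/+) fat, a larger share of the 30 members than that of all genes. With no floor the median for diet in (-/-) was 0.040. By limma, 0 members passed as higher for diet under quantile normalization and with no floor, where 0 of all genes passed, against 237 with the values as deposited and the floor. Counts of members at an unadjusted p under 0.05 are not given for these settings, because the share of all genes was not taken there. The cause was not tested. *Ccl2* is not among the genes above the raised floor.

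Counts of arrays that do not overlap were recomputed in a choice made after seeing the data. Both HFHS arrays lay over both STD arrays in 8 of 14 members with the floor raised, a larger share than that of all genes. They lay under in 1 of 30 with median centring, 4 of 55 with no floor and 0 of 14 with the floor raised. Each of these was a smaller share than that of all genes. Both (-/-) arrays lay over both (+/+) arrays in 14 of 55 members with no floor. This was a larger share than that of all genes, which also rose there from 12.7%. With the floor raised they did so in 1 of 14 members, close to the 6.52% of all genes. For members under the floor a difference has little meaning, and 1 array per group gives no spread between animals.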
